A study of Mus musculus with 6 samples.

Results

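The genes described here were Thsd4 and 9 other genes of the elastic microfibril, 10 of the 55471 genes counted. They were Thsd4, Fbn1, Fbn2, Fbln5, Eln, Lox, Loxl1, Emilin1, Mfap2 and Mfap5, found by gene symbol. Poly(A) RNA was sequenced from primary osteoblasts, which are bone-forming cells, isolated from the skull caps of 3-day-old C57BL/6 mice. The cells were cultured for 3 days before harvest. The 3 WT libraries came from wild-type mice, and whether these carried a Cre or floxed allele is not given in the sources used here. The 3 libraries labelled TCKO came from mice with Prx1-Cre and homozygous floxed alleles of Tet1, Tet2 and Tet3 (Tet1fl/fl, Tet2fl/fl, Tet3fl/fl), in which a Cre recombinase driven by the Prx1 promoter in limb and skull mesenchyme removes parts of all 3 Tet genes. Cells of the skull cap that never expressed Prx1-Cre would keep intact Tet alleles. Tet genes encode the dioxygenases that oxidise methylated cytosine, mostly at CpG dinucleotides. In what follows, TCKO stands for the libraries that carry this label.

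Elastic fibres consist of a core of cross-linked elastin laid down on a sheath of microfibrils, which are polymers of fibrillin. Microfibrils also run alone through connective tissue, bone matrix included, where they hold latent TGF-beta and BMP complexes. Fibrillins (Fbn1, Fbn2) form the polymer, Mfap2 and Mfap5 (also called MAGP-1 and MAGP-2) bind along it, and Emilin1 sits where it meets elastin. Fbln5 brings tropoelastin (Eln) to the microfibril, and the copper enzymes Lox and Loxl1 cross-link elastin and collagen. Thsd4, also called ADAMTSL6, is a secreted ADAMTS-like protein without protease activity that binds fibrillin 1 and promotes microfibril assembly.

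Thsd4 was chosen by its difference between the genotypes in these libraries, and the other genes were listed with results of these libraries known. The differences of the 10 genes are therefore given as a description. Where the 10 genes, the pathway genes together or the neighbours of Thsd4 are counted in the main fit, the share over all tested genes stands beside the count. Counts within single lists and among markers can be set beside the same shares. At an adjusted p under 0.05 these were 3.19% lower and 3.16% higher by over 2-fold, and 8.63% and 9.07% at any fold. No p-value is given for a gene of the 10. Depth was between 8019999 and 10177214 counts per library, and each gene had at least 45 counts in every library. Replicates 1 and 2 of a genotype were alike (chi-square per degree of freedom of 1.69 in WT and 2.04 in TCKO, where sampling noise alone gives 1) and replicate 3 stood apart from both (16.5 to 23.3). Xist had 4583 counts and the Y-linked Ddx3y 0 in TCKO replicate 3, against 1 to 4 and 675 to 1094 in the other libraries. This is the pattern of female cells in TCKO replicate 3 and of male cells in the others. Sex thus differed between the genotypes within replicate 3, and its part in the differences was not tested. Tet1 had 98, 131 and 115 counts in WT against 68, 51 and 51 in TCKO, and fell by 0.97 ± 0.16 on the log2 scale (SE; edgeR, adjusted p = 0.00648). Tet2 did not pass the test (log2 fold change -0.14 ± 0.14) and Tet3 rose (0.51 ± 0.09), but counts over whole genes also cover exons outside the deleted parts.

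The reference DNA before the start sites is shown for Thsd4 because it had the lowest TCKO level relative to WT, and for Fbln5 because it is the listed gene whose window holds the most CpG dinucleotides. The RefSeq windows (GRCm38.p6) reach from 250 bases before to 50 after a start and were found for 5 of the 10 genes, in 8 windows. The 250 bases before the start are printed where no GENCODE M21 exon lies in them, 5′ to 3′ on the gene's own strand, with each CpG in capitals, the dinucleotide on which TET enzymes mostly act. Thsd4 start 1 is chr9:60511036-60511285 and start 2 is chr9:60141221-60141470, both on the minus strand and both in introns of the longer deposited gene model. Fbln5 start 1 is chr12:101819120-101819369 on the minus strand, just outside the deposited gene.
Thsd4 start 1: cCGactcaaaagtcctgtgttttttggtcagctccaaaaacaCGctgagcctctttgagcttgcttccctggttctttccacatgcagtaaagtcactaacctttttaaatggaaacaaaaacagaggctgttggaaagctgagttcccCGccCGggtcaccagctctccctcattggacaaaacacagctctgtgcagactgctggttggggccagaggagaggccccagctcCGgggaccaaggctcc
Thsd4 start 2: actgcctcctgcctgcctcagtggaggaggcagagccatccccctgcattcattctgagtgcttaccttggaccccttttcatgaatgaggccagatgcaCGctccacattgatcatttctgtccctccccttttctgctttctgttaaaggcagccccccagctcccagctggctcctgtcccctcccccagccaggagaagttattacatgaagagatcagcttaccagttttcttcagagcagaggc
Fbln5 start 1: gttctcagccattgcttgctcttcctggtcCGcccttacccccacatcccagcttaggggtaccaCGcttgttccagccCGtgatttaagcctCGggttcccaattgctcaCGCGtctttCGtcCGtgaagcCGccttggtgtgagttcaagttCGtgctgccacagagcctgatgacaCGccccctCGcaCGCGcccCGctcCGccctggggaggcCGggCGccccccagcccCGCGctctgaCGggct

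The first Thsd4 window held 6 CpG in its 300 bases and the second held 2. The ratio of observed to expected CpG was 0.266 and 0.09, at the 37.7th and 11.9th percentile of all 32851 promoter windows, whose median ratio was 0.384. The window of Fbln5 start 1 held 24 CpG (ratio 0.776, percentile 77.2). Fbn1 had 14 CpG (ratio 0.583), Fbln5 start 2 had 8 (0.457), Emilin1 had 6 (0.234), and the Mfap2 windows had 22 (0.662) and 6 (0.324). The listed genes thus included windows rich and poor in CpG. On either strand, the GC box CCGCCC was found in 4 of the 8 windows, of Thsd4 start 1, Fbn1, Fbln5 start 1 and Mfap2 start 1, and in 35.7% of all windows. The Runt core TGTGGT (16.8% of all windows), the AP-1 site TGACTCA (5.2%) and the TATA box TATAAA (13.6%) were in 0 of the 8. These letters do not overlap each other, and a match is a description of the sequence only.

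In WT the 10 genes covered a wide range of levels, here given as RPKM, that is, library-scaled counts (CPM) divided by the exon length in kb. Lox was far above the others at 1778 ± 192 RPKM (SD, n = 3), at the 99.9th percentile of the 13826 tested genes. It was followed by Loxl1 (69.8 ± 4.74), Emilin1 (59.4 ± 3.46), Fbln5 (40.3 ± 10.7) and Fbn1 (27.3 ± 0.903). Mfap2 (9.42 ± 3.29), Thsd4 (8.97 ± 1.15), Eln (5.94 ± 1.67), Mfap5 (3.92 ± 0.564) and Fbn2 (3.06 ± 0.679) made up the lower part. Thsd4 stood at the 62.2nd percentile of tested genes and Fbn2 at the 34.2nd. Of the 9 pairs of neighbours in this order, 4 overlapped between the 3 WT libraries, namely Fbln5 and Fbn1, Mfap2 and Thsd4, Eln and Mfap5, and Mfap5 and Fbn2. Eln stood at the 51.2nd percentile, near the middle of the tested genes. WT cultures thus held far more transcript of Lox than of Eln for its length.

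**Figure D1:**
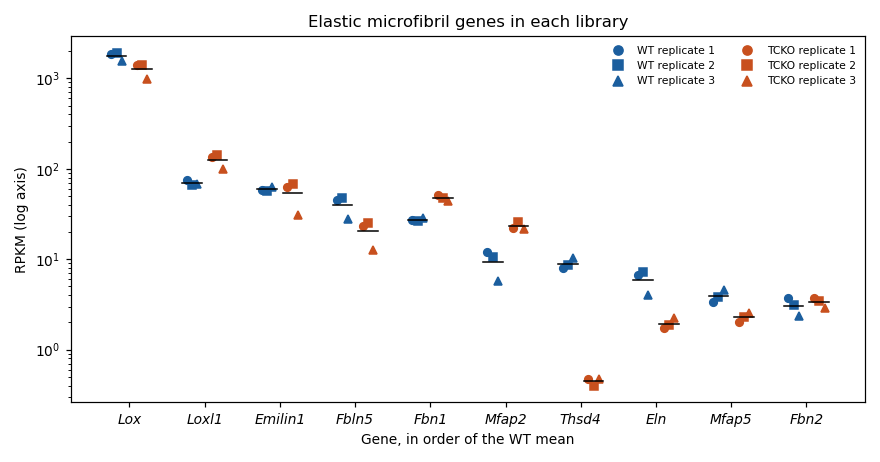
RPKM of each gene in each library on a log axis, in the order of the WT mean; symbols mark the replicate and short lines the mean of 3 libraries. Lox lies far above the other genes in both genotypes (WT mean 1778), and Thsd4 shows the widest gap between WT (8.02 to 10.2) and TCKO (0.40 to 0.47).

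Thsd4 (ENSMUSG00000032289, chromosome 9, 59966931 to 60522046, GRCm38, minus strand) had 926, 1211 and 1182 counts in WT replicates 1, 2 and 3. It had 58, 45 and 59 counts in TCKO. All TCKO libraries were far below all WT libraries, yet remained above 3 counts, the level that an observed count of 0 can hide. The WT mean of 125 ± 16.1 CPM compared with 6.28 ± 0.592 CPM in TCKO (SD, n = 3), 19.9-fold lower in TCKO by the fitted log2 fold change of -4.31 ± 0.13 (SE). With each library left out in turn, this value stayed between -4.39 and -4.21. In bulk RNA, fewer cells that express a gene and less RNA per cell cannot be told apart. The 4 other genes annotated inside Thsd4 had at most 2 counts in a library.

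Of the 10 genes, 2 were lower in TCKO by over 2-fold at an adjusted p under 0.05 (Thsd4 and Eln) and 1 was higher (Mfap2). Among all tested genes, 3.19% were lower and 3.16% higher by these limits. At any fold, 4 of 10 were lower (Thsd4, Fbln5, Eln, Mfap5; 8.63% of all tested genes) and 3 were higher (Fbn1, Loxl1, Mfap2; 9.07%), while Fbn2, Lox and Emilin1 did not pass. For 8 of the 10 genes the CPM of WT and TCKO did not overlap, which held for 38.3% of all tested genes. At any fold the count of lower genes was 2 without WT replicate 2, TCKO replicate 1 or TCKO replicate 2. In these fits Fbln5 and Mfap5 did not pass. The count was 3 without WT replicate 1, 5 without WT replicate 3 and 4 without TCKO replicate 3. The share of all tested genes at any fold is not given for these fits. By over 2-fold the count of lower genes was 3 without WT replicate 3 and 2 without each other library. Among all tested genes, calls by over 2-fold numbered 625, 595 and 1049 without WT replicate 1, 2 and 3. They numbered 674, 684 and 939 without TCKO replicate 1, 2 and 3, against 878 with all libraries. The count of higher genes at any fold stayed 3 whichever library was left out. Since the genes were picked with these results known, nothing is read from the counts. The median log2 fold change of the 10 genes was -0.32, beside 0.0002 over all tested genes, and it was -0.10 without TCKO replicate 3.

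Of the fibrillins, Fbn1 was higher in TCKO and Fbn2 overlapped between the genotypes. Fbn1, the main fibrillin of postnatal tissue (ENSMUSG00000027204, chromosome 2, 125300594 to 125507993, minus strand), had 2691, 3234 and 2830 counts in WT against 5431, 4623 and 4755 in TCKO. All TCKO libraries were above all WT libraries, with 331 ± 11.0 CPM in WT and 576 ± 43.3 in TCKO, or a log2 fold change of 0.80 ± 0.08. Gm9913, which lies across the Fbn1 start on the other strand, had 9 to 40 counts in a library, few beside those of Fbn1. Fbn2, the fibrillin most active in the embryo (ENSMUSG00000024598, chromosome 18, 58008623 to 58210487, minus strand), had 405, 414 and 257 counts in WT against 428, 368 and 339 in TCKO. Its genotypes overlapped (log2 fold change 0.13 ± 0.17). The RPKM ratio of Fbn1 to Fbn2 was 9.25 ± 2.46 in WT and 14.3 ± 0.884 in TCKO, and that of Fbn1 to Thsd4 went from 3.06 ± 0.295 to 106 ± 12.8. TCKO libraries thus held more transcript of fibrillin 1 and much less of the ADAMTS-like protein that binds it.

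The microfibril-associated glycoproteins differed in opposite directions. Mfap2 (ENSMUSG00000060572, chromosome 4, 141010418 to 141015984, plus strand) had 120, 128 and 57 counts in WT against 238, 251 and 231 in TCKO. The TCKO libraries lay close together and above all of WT, where replicate 3 was the lowest. Its mean was 11.4 ± 3.99 CPM in WT against 28.1 ± 2.76 in TCKO (log2 fold change 1.30 ± 0.24). Mfap5 (ENSMUSG00000030116, chromosome 6, 122505845 to 122529290, plus strand) had 101, 138 and 134 counts in WT against 64, 66 and 81 in TCKO, again without overlap (14.1 ± 2.03 and 8.20 ± 0.890 CPM, log2 fold change -0.78 ± 0.16). The RPKM ratio of Mfap2 to Mfap5 was 3.52, 2.75 and 1.26 in WT and 11.0, 11.3 and 8.45 in TCKO.

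The elastin core and its adaptors were lower in TCKO or without a clear difference. Eln, which encodes tropoelastin (ENSMUSG00000029675, chromosome 5, 134702593 to 134747323, minus strand), had 443, 581 and 270 counts in WT against 123, 121 and 160 in TCKO. WT replicate 3 was the lowest of WT and TCKO replicate 3 the highest of TCKO, without overlap. The mean was 48.1 ± 13.5 CPM in WT and 15.7 ± 2.03 in TCKO, 3.07-fold lower (log2 fold change -1.62 ± 0.22). Relative to Fbn1, the RPKM ratio of Eln was 0.219 ± 0.0673 in WT against 0.0412 ± 0.00841 in TCKO.

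Fbln5, the fibulin that carries tropoelastin to microfibrils (ENSMUSG00000021186, chromosome 12, 101746565 to 101819055, minus strand), had 2573, 3303 and 1598 counts in WT. It had 1403, 1399 and 778 in TCKO. Replicate 3 was the lowest in both genotypes, so that the lowest WT library (194 CPM) was close to the highest TCKO library (174 CPM). The log2 fold change was -0.99 ± 0.28. It was between -1.19 and -0.73 with single libraries left out.

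Emilin1, a glycoprotein of the border between elastin and microfibril (ENSMUSG00000029163, chromosome 5, 30913402 to 30921277, plus strand), had 2396, 2789 and 2574 counts in WT against 2706, 2701 and 1373 in TCKO. TCKO replicate 3 was far below the other 5 libraries, which lay within 278 to 336 CPM. The log2 fold change was -0.14 ± 0.25 over all libraries and 0.14 without TCKO replicate 3, so this 1 library sets its sign.

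Of the elastin cross-linking enzymes, Loxl1 was among the 3 higher genes and Lox did not pass the limits. Lox (ENSMUSG00000024529, chromosome 18, 52516067 to 52529867, minus strand) had 73062, 92034 and 61485 counts in WT against 58321, 54353 and 42039 in TCKO. Every WT library was above every TCKO library in CPM (8495 ± 917 and 6043 ± 1151), with replicate 3 the lowest in each genotype. The log2 fold change was -0.49 ± 0.17, between -0.58 and -0.34 over the alternatives. At any fold Lox passed in 6 of the 17 alternatives. These were the DESeq2 fits, the fit with no filter beyond 1 count, the replicate block, the term for replicate 3 and the fit without WT replicate 3. An antisense gene at Lox, AC161119.1, had 66 to 201 counts. Loxl1, which is tied to elastin by Fbln5 (ENSMUSG00000032334, chromosome 9, 58287738 to 58313186, minus strand), had 2050, 2201 and 1839 counts in WT against 3857, 3737 and 2933 in TCKO. All its TCKO libraries were above WT (230 ± 15.6 and 411 ± 72.3 CPM, log2 fold change 0.84 ± 0.13).

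The RPKM ratio of Lox to Loxl1 was 23.1 to 28.9 in WT and 9.89 to 10.4 in TCKO. Lox made up 81.7 ± 3.83% of the summed RPKM of the 5 lysyl oxidases in WT and 68.8 ± 3.46% in TCKO. Lox therefore remained the most abundant lysyl oxidase transcript, with a smaller share in TCKO.

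**Figure D2:**
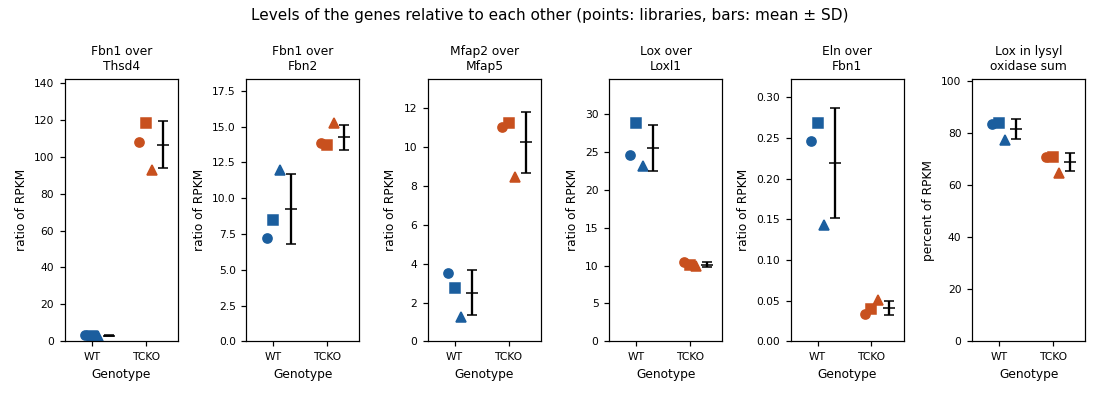
Ratios of RPKM between pairs of the genes, and the share of Lox in the RPKM of the 5 lysyl oxidases, in each library (points, symbols by replicate) with mean ± SD at the right; each axis starts at 0. None of the 6 measures overlapped between the genotypes, and Fbn1 over Thsd4 moved most (3.06 to 106).

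Because replicate 3 stood apart, differences were also taken within replicates 1 and 2 and within replicate 3, as log2 of CPM plus 2. For 9 of the 10 genes both differences had the same sign. Thsd4 gave -3.87 and -4.08, Fbn1 0.88 and 0.63, and Mfap5 -0.62 and -0.72. Eln was lower by more in replicates 1 and 2 (-1.80) than in replicate 3 (-0.80), and Mfap2 was higher by more in replicate 3 (1.65 against 0.99). Emilin1 was the exception, at 0.18 and -1.01.

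**Figure D3:**
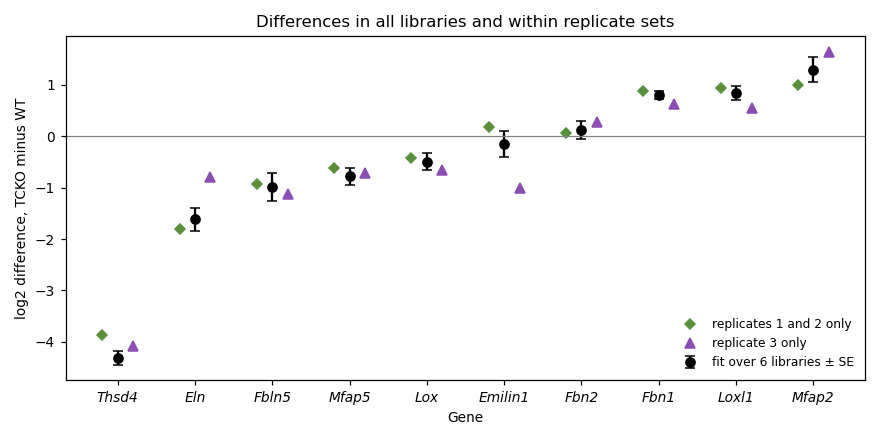
Log2 difference between TCKO and WT for each gene, from the fit over 6 libraries with its SE (black), from replicates 1 and 2 (diamonds) and from replicate 3 (triangles), both as log2 of CPM plus 2. Thsd4 lies between -3.87 and -4.31 by all 3, and only Emilin1 has values on both sides of 0 (0.18 and -1.01).

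The labelled cell type was checked by marker lists. Runx2, Sp7, Col1a1 and Col1a2 were expressed in all libraries, whereas the mature markers Bglap and Dmp1 had at most 3 counts in each. Ibsp and Phex of the same list had 17 to 70 and 2 to 13 counts. Summed osteoblast markers ranged from 30211 to 32567 CPM in WT and from 14277 to 22424 in TCKO, mostly collagen I, with 1 of 7 tested genes called lower (Alpl). Chondrocyte markers summed to 6251 to 8162 CPM in WT and 684 to 969 in TCKO, and all 8 were called lower. Smooth muscle markers were 1995 to 2279 and 2453 to 2976 CPM (1 of 7 tested called higher), tendon markers 140 to 216 and 96.4 to 123 (1 of 4 lower, 1 higher). Macrophage markers were 389 to 696 and 155 to 528 (2 of 6 lower). Endothelial markers summed to 3.29 to 5.58 and 37.3 to 97.1, of which Kdr alone gave 33.1 to 93.9 CPM in TCKO (1 of 2 tested called higher). Pecam1, Cdh5, Tek, Emcn and Tie1 stayed under 1 CPM in every library, with Tie1 at 0 counts in WT. The part of these markers in the differences of the 10 genes was not tested.

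The other genes of the pathway came from 6 lists of 52 genes, 43 of them tested. By edgeR with Benjamini-Hochberg adjustment over all tested genes, 7 fell and 4 rose by over 2-fold, beside 3.19% and 3.16% of all tested genes. At any fold 12 fell and 7 rose (8.63% and 9.07% of all), 24 did not pass, and the median log2 fold change was 0.00. With the replicate number as a block, 12 fell and 12 rose at any fold, beside 11.5% and 12% of all tested genes in that fit. The 5 genes that passed with the block but not without it were Efemp1, Mfap4, Ltbp1, Loxl2 and Bmp1, whose edgeR or DESeq2 adjusted p ranged over the alternatives from 0.00195 to 0.291, 5.33e-06 to 0.299, 0.00352 to 0.551, 0.00294 to 0.451 and 0.000749 to 0.359. Efemp1 and Mfap4 also passed without TCKO replicate 3, and Ltbp1, Loxl2 and Bmp1 without WT replicate 3. With single libraries left out, genes that fell at any fold numbered between 7 and 12 and genes that rose between 6 and 11. The share of all tested genes at any fold is not given for these fits. By over 2-fold, 5 fell and 3 rose without TCKO replicate 1 or 2, and 8 fell and 5 rose without TCKO replicate 3. Among all tested genes, calls by over 2-fold numbered 674, 684 and 939 without TCKO replicate 1, 2 and 3, against 878 with all libraries. In the blocked fit with replicates 1 and 2 summed, Efemp1 and Mfap4 still passed (edgeR adjusted p = 0.0377 and 0.00595), but Ltbp1, Loxl2 and Bmp1 did not (0.179, 0.33 and 0.177). In 4 of the 6 lists genes both rose and fell.

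The ADAMTS-like list, to which Thsd4 belongs by family, had 6 of 10 genes tested, of which 3 fell and 1 rose (median log2 fold change -0.69). Adamtsl4, which binds fibrillin 1 and is needed for the fibres that hold the eye lens, had 287, 390 and 257 counts in WT against 53, 54 and 42 in TCKO. It fell without overlap (log2 fold change -2.59 ± 0.16, edgeR adjusted p = 0.000124). Adamtsl3 had 1271, 1544 and 879 counts in WT against 331, 293 and 185 in TCKO, and fell as well (-2.13 ± 0.24, adjusted p = 0.00126). Adamtsl5 fell by less than 2-fold (-0.97 ± 0.26, adjusted p = 0.0376), and this call was lost when any library but TCKO replicate 3 was left out. Adamtsl1, the member with the most counts, did not pass (0.18 ± 0.14, adjusted p = 0.422). Adamts6, an active protease of the same superfamily that can cleave microfibril proteins, had 101, 148 and 176 counts in WT against 443, 399 and 463 in TCKO and rose (1.66 ± 0.18, adjusted p = 0.00105). Adamtsl3, Adamtsl4 and Adamts6 were called under each of the 17 alternatives run.

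Among 16 other structural genes, 13 were tested, 3 fell and 2 rose. Fbln2, a fibulin that binds fibrillin and elastin, had 4850, 5591 and 6681 counts in WT against 15757, 14726 and 10571 in TCKO (log2 fold change 1.30 ± 0.20, edgeR adjusted p = 0.00496). Its call was lost in the blocked fit with replicates 1 and 2 summed (edgeR adjusted p = 0.0862). Fbln1, another fibulin, had 136, 140 and 80 counts in WT against 551, 519 and 151 in TCKO (1.84 ± 0.47, adjusted p = 0.0327), with TCKO replicate 3 barely above WT. The Fbln1 call was lost without WT replicate 1, 2 or 3 or without TCKO replicate 1 or 2 (adjusted p from 0.0745 to 0.11). Fbln7, a small fibulin, fell from 23, 23 and 33 counts to 11, 10 and 10 (-1.31 ± 0.31, adjusted p = 0.0249). Its call was lost without WT replicate 1 or TCKO replicate 1 or 2, with adjusted p = 0.0704, 0.0806 and 0.08 by edgeR. Hspg2, the basement membrane proteoglycan perlecan and the most counted gene of this list, fell slightly (-0.43 ± 0.12, adjusted p = 0.0483), a call lost when any library but TCKO replicate 3 was left out. Mfap4, which binds elastin and Fbn1, had 456, 540 and 182 counts in WT against 1090, 1090 and 499 in TCKO. It did not pass (1.26 ± 0.41, adjusted p = 0.0693) but passed with the replicate block (edgeR adjusted p = 0.000164), as did Efemp1 (0.00832).

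The latent TGF-beta binding proteins, which are built like fibrillins and most of which tether TGF-beta to microfibrils, went in both directions. Ltbp3 rose (log2 fold change 0.97 ± 0.13, edgeR adjusted p = 0.00285) from 1112, 1160 and 1414 counts to 2373, 2248 and 2479. Ltbp4, which works with Fbln5 in elastin assembly, fell (-0.62 ± 0.11, adjusted p = 0.00917). Ltbp2 fell (-1.54 ± 0.39, adjusted p = 0.0325), but WT replicate 3 had 3872 counts against 1420 and 1696 in the other WT libraries. Without that library its log2 fold change was -0.88 (edgeR adjusted p = 0.0069), under 2-fold, and without TCKO replicate 1 or 2 it did not pass (0.113 and 0.112). Ltbp1, with the most counts, did not pass (0.34 ± 0.17, adjusted p = 0.209). It passed with the replicate block (0.0169) but not when replicates 1 and 2 were also summed (edgeR adjusted p = 0.179).

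Of the other lysyl oxidases, Loxl4 fell (log2 fold change -1.58 ± 0.16, edgeR adjusted p = 0.000677) from 468, 505 and 625 counts to 184, 166 and 172. Loxl3 rose (0.79 ± 0.09, adjusted p = 0.00132) in all 3 TCKO libraries. Loxl2, the second most abundant of the family in RPKM, did not pass (0.43 ± 0.14, adjusted p = 0.0674). It passed with the replicate block (0.0403) but not when replicates 1 and 2 were also summed (edgeR adjusted p = 0.33). Including Lox and Loxl1, the family therefore had members with TCKO levels above and below WT.

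Among 9 genes for fibrillin processing, elastin binding and copper supply, 2 rose. Pcsk5, a proprotein convertase, rose from 65, 96 and 54 counts to 208, 207 and 135 (log2 fold change 1.42 ± 0.23, edgeR adjusted p = 0.00591). Furin, the convertase that trims profibrillin, rose by less (0.48 ± 0.07, adjusted p = 0.00347). It did not pass in the blocked fit with replicates 1 and 2 summed (edgeR adjusted p = 0.0672). Bmp1, the procollagen C-proteinase that also activates Lox and the most counted gene of this list, did not pass (0.50 ± 0.15, adjusted p = 0.0546). It passed with the replicate block (0.0207) but not when replicates 1 and 2 were also summed (edgeR adjusted p = 0.177). The elastin receptor component Ctsa (0.00 ± 0.10, adjusted p = 0.992) and the copper transporters Atp7a (0.07 ± 0.16) and Slc31a1 (0.21 ± 0.07) did not pass.

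Among 10 elastolytic enzymes, 8 were tested and 3 fell. Ctsk, the collagenolytic and elastolytic cathepsin best known from osteoclasts, had 1086, 1268 and 878 counts in WT against 255, 177 and 165 in TCKO (log2 fold change -2.39 ± 0.17, edgeR adjusted p = 0.000148). The study named Ctsk on these samples, so its direction is not independent evidence. Mmp12, the macrophage elastase, fell from 83, 99 and 41 counts to 19, 23 and 14 (-1.92 ± 0.35, adjusted p = 0.00856). Of the 6 macrophage markers, Csf1r and Adgre1 were called lower, while Ptprc, Cd68, Lyz2 and Tyrobp did not pass. A link between these markers and Mmp12 was not tested. Mmp2, the most counted enzyme, fell (-0.83 ± 0.13, adjusted p = 0.00511). Mmp14, Ctsb and Ctsl lay between 0.05 and 0.13 on the log2 scale and did not pass.

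**Figure D4:**
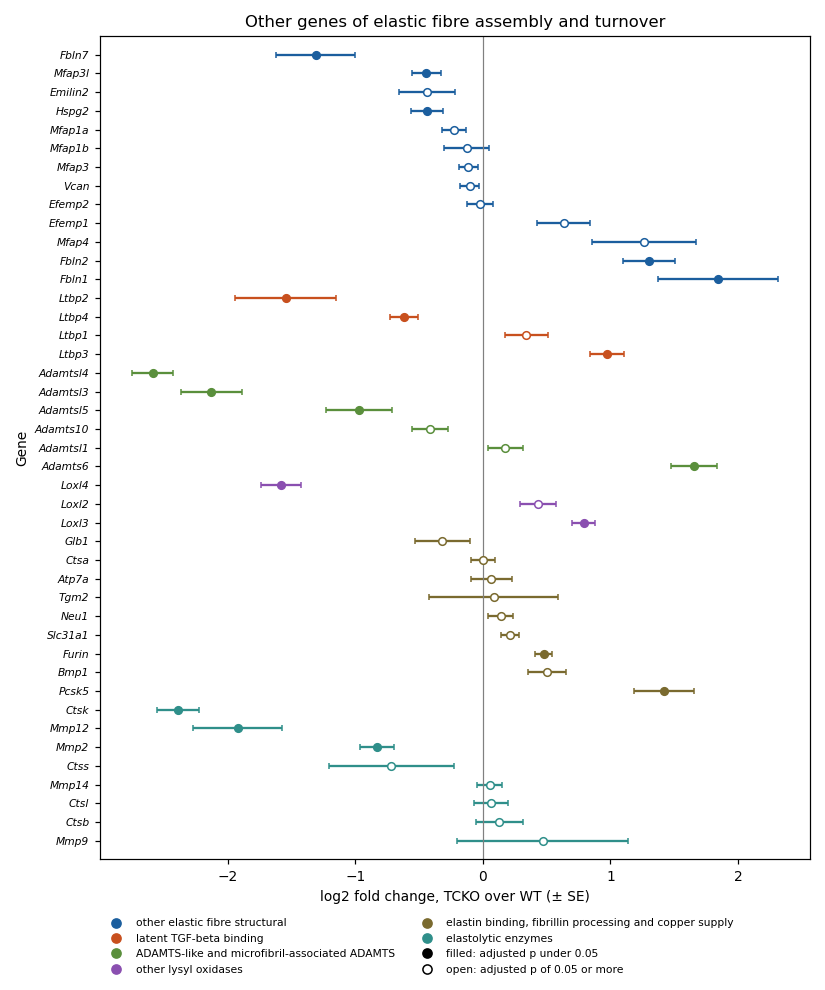
Log2 fold change (TCKO over WT, with SE) of the 43 tested pathway genes, coloured by list; filled points have an edgeR adjusted p under 0.05 over all tested genes. Adamtsl4 (-2.59) and Ctsk (-2.39) are at the low end, and Fbln1 (1.84) and Adamts6 (1.66) at the high end.

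The genes around Thsd4 were examined to see how far its difference extended along chromosome 9. Of 33 annotated genes considered that overlap it or lie within 500 kb, 11 were tested. Of these, 1 fell by over 2-fold (3.19% of all tested genes), and at any fold 4 fell and 1 rose (8.63% and 9.07% of all). Gramd2, 248057 bp from Thsd4, fell from 64, 92 and 105 counts to 25, 19 and 37 (log2 fold change -1.65 ± 0.28, edgeR adjusted p = 0.00649). Both tested genes nearest to Thsd4 fell by less, Myo9a at 38065 bp (-0.38 ± 0.08, adjusted p = 0.0181) and Lrrc49 at 46813 bp (-0.60 ± 0.16, adjusted p = 0.0358). Larp6 fell (-0.82 ± 0.18, adjusted p = 0.0183) and Uaca rose (0.39 ± 0.08, adjusted p = 0.0139). Myo9a and Larp6 did not pass without WT replicate 1 or 2 or TCKO replicate 1 or 2, Lrrc49 when any library but WT replicate 3 was left out, and Uaca without WT replicate 2, whereas Gramd2 passed without each. The 6 others, Arih1, Hexa, Parp6, Pkm, Gm49759 and Senp8, lay between -0.33 and 0.51 and did not pass. Gm49759, which lies inside Pkm on the same strand so that their counts are uncertain, passed with the replicate block (edgeR adjusted p = 0.00855, but 0.062 with replicates 1 and 2 summed, range over the alternatives 0.00438 to 0.813). The log2 fold change of Thsd4 (-4.31) was well below that of each tested neighbour.

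**Figure D5:**
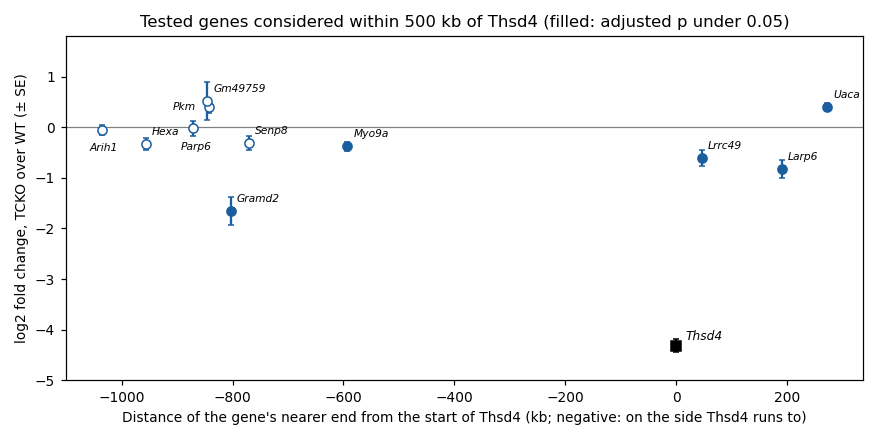
Log2 fold change (TCKO over WT, with SE) of the 11 tested neighbours considered and of Thsd4 (square) against the distance in kb of each gene's nearer end from the start of Thsd4; filled circles have an edgeR adjusted p under 0.05. Thsd4 lies at -4.31 and its lowest neighbour, Gramd2, at -1.65.

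The pattern of Thsd4 over the 6 libraries was compared with 9261 genes of at least 100 mean counts by Pearson's r of log2 CPM. The most alike were Frmd6 (r = 0.999), Smurf2, Npr3, Slc13a5 and Runx2 (each 0.998). In all, 316 genes had r over 0.95 and 407 had r under -0.95. The points are 6 libraries that share 2 genotypes, and r is given without a test. Thsd4 was chosen by its genotype difference, so a high r can come from the split between genotypes alone. The fold changes of the 5 genes were unlike that of Thsd4 in size. Npr3, a natriuretic peptide clearance receptor, gave -2.59 ± 0.10, Slc13a5, a citrate transporter, -2.41 ± 0.12, and Smurf2, a ubiquitin ligase, -0.98 ± 0.07. Frmd6 gave -0.67 ± 0.06 and the osteoblast regulator Runx2 -0.45 ± 0.07.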

How the data were processed

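Poly(A) RNA libraries were made with a directional kit from 3 WT and 3 TCKO samples. Groups and replicate numbers came from the sample titles. Per the labels and the study's methods, the authors aligned reads to GRCm38 (Ensembl annotation) with STAR 2.7.0e, and the deposited values are raw counts per gene from featureCounts 2.0.0. The strand setting is not given in the sources used here, so antisense overlaps are uncertain. Whether libraries came from separate animals is not given either, so p-values measure the spread between these libraries. Symbols and coordinates came from a gene name table and the deposited file (0 columns unassigned).

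Counts were fitted with edgeR 4.0.16 (R 4.3.3): filterByExpr (13826 genes), TMM factors, quasi-likelihood test of genotype without covariates, and Benjamini-Hochberg adjustment. A gene was called at an adjusted p under 0.05 and a fold over 2, which are limits of the study. Its RPKM minimum of 0.24 was applied only in an alternative with DESeq2. SEs were derived from the F statistic. CPM used TMM-scaled totals, and 3 counts were worth 0.299 to 0.373 CPM, which covers counting error only. The likeness measure used log2 CPM with a prior count of 2. The fitting code was tested on simulated data.

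The members and lists were chosen with earlier results of these data known. Named were all 10 members, each called pathway gene, the most counted gene of each list, Tet1 to Tet3, tested genes overlapping Thsd4 or within 500 kb, and the 5 genes most like Thsd4. A result on 1 neighbour of Thsd4 is not reported here. Other pathway genes named were chosen after their values were seen. Same-numbered libraries of the genotypes deviated together (correlations across genes of 0.204, 0.214 and 0.347). Since replicate 3 stood apart in both genotypes, these values cannot show that replicates 1 and 2 pair by number. The main fit used no pairing, and the replicate block was an alternative. A comparison of protein sequences was planned and not run, since no protein table was used here. Alternatives were RLE or upper-quartile factors, other filters, DESeq2 1.42.0, a robust fit, a replicate block, a term for replicate 3, replicates 1 and 2 summed, and each library left out. Their use on the neighbours, on single pathway genes and on the genes most like Thsd4 was added after seeing the data.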

Additional observations from a re-analysis of the deposited data

How the results depend on the processing

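Calls were set beside 17 alternatives. The number of genes called, 878 in all, was 543 when genes needed 50 counts on average and 324 when replicates 1 and 2 were summed. The latter fit, with 2 libraries per genotype, also called 1 member lower and 0 higher, 4 pathway genes lower and 1 higher, and 0 neighbours of Thsd4. In that fit Thsd4 alone of the members passed at any fold, whereas Eln, Mfap2, Fbn1, Loxl1, Mfap5 and Fbln5 did not. These fits have fewer genes or fewer libraries. The main fit counts replicates 1 and 2 as separate, and whether they are independent samples is not given. If they are not, the p-values of the main fit are too small. The replicate block gave 1011 calls (524 lower, 487 higher), added Fbln5 to the members lower by over 2-fold and Lox to those lower at any fold (Lox not in the blocked fit with replicates 1 and 2 summed), and gave 8 pathway genes lower and 5 higher. With single libraries left out, between 595 and 1049 genes were called. Thsd4 was between -4.39 and -4.21 on the log2 scale over all alternatives. None of the called members, pathway genes and neighbours changed sign under any alternative. The replicate block changed no call beyond those given in the report and here. At this depth, Fbln7 (10 to 33 counts) and Mmp12 (14 to 99) rest on few counts.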

Other observations

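Of the 52 pathway genes, 9 had too few counts to be tested. Mmrn1, an emilin-like protein of platelets and endothelium, and Elane, the neutrophil elastase, had 0 counts in all 6 libraries, which allows up to 0.299 to 0.373 CPM each. Emilin3 and Adamts19 had at most 1 count in a library and Adamtsl2, a relative of Thsd4 that binds fibrillin 1, at most 2. Mmrn2, Papln, Adamts17 and Cela1 had at most 8. Transcripts of these genes were thus not detectable or near the floor at this depth in either genotype. Among the tested genes, Tgm2 (31, 33 and 69 counts in WT, 63, 56 and 19 in TCKO) and Mmp9 (8, 33 and 68 in WT, 52, 71 and 23 in TCKO) were opposite in order between replicate 3 and the other replicates, and neither passed the test (edgeR adjusted p = 0.928 and 0.674).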
